A study of Rattus norvegicus with 6 samples.

Results

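A set of 10 genes around the transcriptional coactivators YAP and TAZ were followed in H9c2 cells after knockdown of the long non-coding RNA Tug1. They were taken by gene symbol from the deposited count table: the coactivator genes Yap1 and Wwtr1 (which encodes TAZ), the DNA-binding partner genes Tead1 and Tead4, and the target genes Ccn1, Ccn2, Ankrd1, Amotl2, Lats2 and Axl. All 10 symbols had a row among the 40456 genes of the table, and all 10 were among the 14216 genes with enough counts to be tested. H9c2 (2-1) is a subclone of a line from embryonic rat heart, labelled wild type in every sample. The cells had been held for 5 days in 1% serum with 1 µM retinoic acid. They then received 25 nM of a locked nucleic acid gapmer for 24 h, either a negative control LNA (3 libraries) or a Tug1 knockdown LNA (3 libraries). Gapmers are short antisense oligonucleotides through which RNase H cuts the bound RNA. All control cells were thus also transfected. The labels give 1 gapmer against Tug1, so lowered Tug1 and other effects of that oligonucleotide cannot be told apart. The labels do not say whether the 3 replicates were separate cultures, and p-values then measure only the spread between these libraries.

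The sequences of the gapmers, given 5′ to 3′ as the labels' protocol states them, show what separates the groups.
Tug1 gapmer: attcagtagacagcta
Negative control gapmer: gctcccttcaatccaa

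YAP and TAZ are the output of the Hippo pathway, a kinase cascade that responds to cell contact, cytoskeletal tension and growth signals. The kinases MST1 and MST2 activate LATS1 and LATS2, which phosphorylate YAP and TAZ and keep them in the cytoplasm, where they can be degraded. When the kinases are inactive, YAP and TAZ enter the nucleus and bind TEAD factors, which carry the DNA-binding domain that YAP and TAZ lack. In the heart this pathway is known for its control of cardiomyocyte proliferation and of the response of fibroblasts to stretch and injury. Transcript levels do not report the phosphorylation or the location of YAP and TAZ, which were not measured here.

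The short motif that TEAD factors bind is GGAATG, which reads CATTCC on the other strand. RefSeq promoter windows (250 bases before to 50 bases after the annotated start, rat assembly GRCr8) were matched by symbol for 6 of the 10 genes: Yap1, Wwtr1, Ccn1, Ccn2, Amotl2 and Axl. The windows that held the motif are shown because they show where it lies in genes whose levels changed. Capitals mark the motif on either strand. The build behind the counts is not given in the sources used here, so these positions refer to GRCr8 alone.
Ccn2 (chr1:22624565-22624864, minus strand): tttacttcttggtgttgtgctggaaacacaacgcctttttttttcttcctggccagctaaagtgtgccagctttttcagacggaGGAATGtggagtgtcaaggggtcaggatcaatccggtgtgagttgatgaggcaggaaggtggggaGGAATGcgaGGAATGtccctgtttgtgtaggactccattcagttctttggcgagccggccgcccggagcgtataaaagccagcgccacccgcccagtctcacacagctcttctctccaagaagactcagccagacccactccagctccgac
Ccn1 (chr2:237225640-237225939, minus strand): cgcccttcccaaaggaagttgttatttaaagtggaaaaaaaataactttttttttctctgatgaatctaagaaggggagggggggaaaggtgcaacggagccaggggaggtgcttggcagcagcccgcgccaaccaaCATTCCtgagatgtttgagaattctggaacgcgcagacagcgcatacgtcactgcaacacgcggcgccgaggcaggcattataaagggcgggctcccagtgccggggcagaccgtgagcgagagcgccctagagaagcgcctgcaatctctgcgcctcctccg
Amotl2 (chr8:112182376-112182675, plus strand): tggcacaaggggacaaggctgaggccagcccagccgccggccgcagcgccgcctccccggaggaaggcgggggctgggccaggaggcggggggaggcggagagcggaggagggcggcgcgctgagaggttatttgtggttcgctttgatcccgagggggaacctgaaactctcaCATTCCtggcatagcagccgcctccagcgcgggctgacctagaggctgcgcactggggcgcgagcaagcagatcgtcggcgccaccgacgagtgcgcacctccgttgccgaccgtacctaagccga
Yap1 (chr8:13451388-13451687, minus strand): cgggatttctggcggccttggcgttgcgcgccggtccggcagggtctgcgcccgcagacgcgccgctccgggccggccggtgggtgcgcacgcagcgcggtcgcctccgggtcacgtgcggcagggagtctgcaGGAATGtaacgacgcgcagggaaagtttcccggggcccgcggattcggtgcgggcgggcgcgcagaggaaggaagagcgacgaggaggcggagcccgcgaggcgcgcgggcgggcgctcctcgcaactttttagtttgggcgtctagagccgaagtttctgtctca

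The Ccn2 window held the motif 3 times, starting 166, 101 and 92 bases before the annotated start. Ccn1 held it once, 113 bases before the start, Amotl2 once, 76 bases before, and Yap1 once, 116 bases before. The windows of Wwtr1 and Axl held no copy. Of all 33469 promoter windows in the table, 14.2% held at least 1 copy and 32 (0.0956%) held at least 3. Among the windows of tested genes alone, these shares were 11.4% and 0.0855%. The CArG box, the motif of serum response factor, was searched only as CC, then 6 letters of A or T, then GG. This exact pattern was in none of the 6 windows and in 1.64% of all windows. A match describes the letters in the window and does not show binding.

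**Figure D1:**
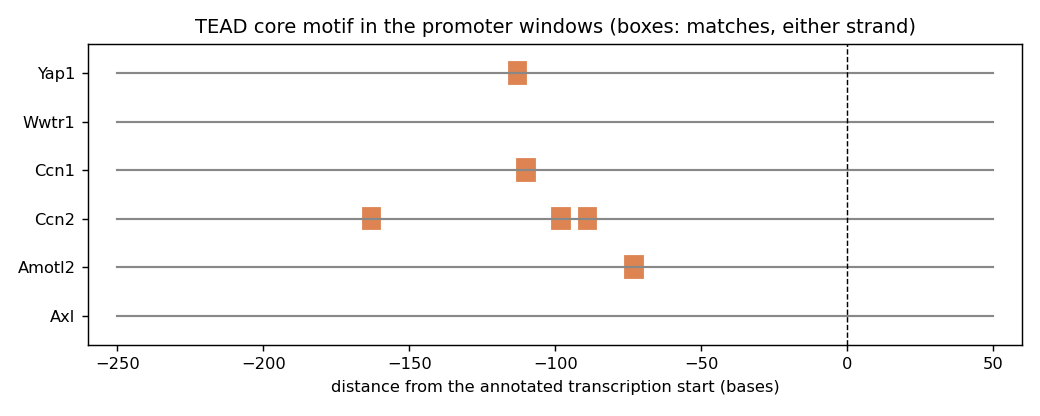
TEAD core motif in the promoter windows of 6 genes. The horizontal axis is the distance from the annotated transcription start in bases, each line is a window from 250 bases before to 50 bases after it, and each box is a match on either strand. Ccn2 has 3 boxes, Yap1, Ccn1 and Amotl2 have 1 each, and Wwtr1 and Axl have none.

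Total counts were 12978548 to 13544337 per library, so a level of 1 CPM (counts scaled to the TMM-adjusted library size) stood for 12.9 to 13.8 counts. Tug1 itself went from 54.0 ± 1.77 to 11.9 ± 0.609 CPM (SD over n = 3), with no overlap between the groups. The labels call the cells cardiomyocytes. Of 10 cardiomyocyte markers, Tnnt2, Tnnc1, Actc1 and Myl2 had enough counts to be tested. Myl2 was low among them, at 0.539 ± 0.133 CPM in controls (SD, n = 3). Tnni3, Mybpc3 and Nppa had too few counts to be tested, and Myh6, Myh7 and Ryr2 did not exceed 3 counts in any library. The 10 skeletal muscle markers, Myog and Myh3 among them, were all tested, and their summed level was 996 to 998 CPM in controls and 1475 to 1559 CPM after knockdown. Fibroblast markers summed to 43449 to 44792 CPM in controls and 40913 to 43734 CPM after knockdown, mostly from collagen genes, with Pdgfra at 0.514 ± 0.116 CPM in controls (SD, n = 3) and Tcf21 at 0. The endothelial markers Pecam1, Cdh5 and Kdr did not exceed 3 counts.

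Of the 10 genes, 8 were called changed at an adjusted p under 0.05 in edgeR's quasi-likelihood test, against 61.7% of all tested genes. Yap1 and Ankrd1 rose (30.8% of all tested genes were called higher). Wwtr1, Ccn1, Ccn2, Amotl2, Lats2 and Axl fell (30.9% of all were called lower). The same 8 genes had control and knockdown values that did not overlap, as 65.6% of all tested genes did. The share of changed genes is therefore to be read against a background in which most genes moved. The median log2 fold change of the 10 genes was -0.28, beside 0.00 for all tested genes. In a bulk measurement of this kind, fewer cells of a type and less RNA per cell cannot be told apart.

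**Figure D2:**
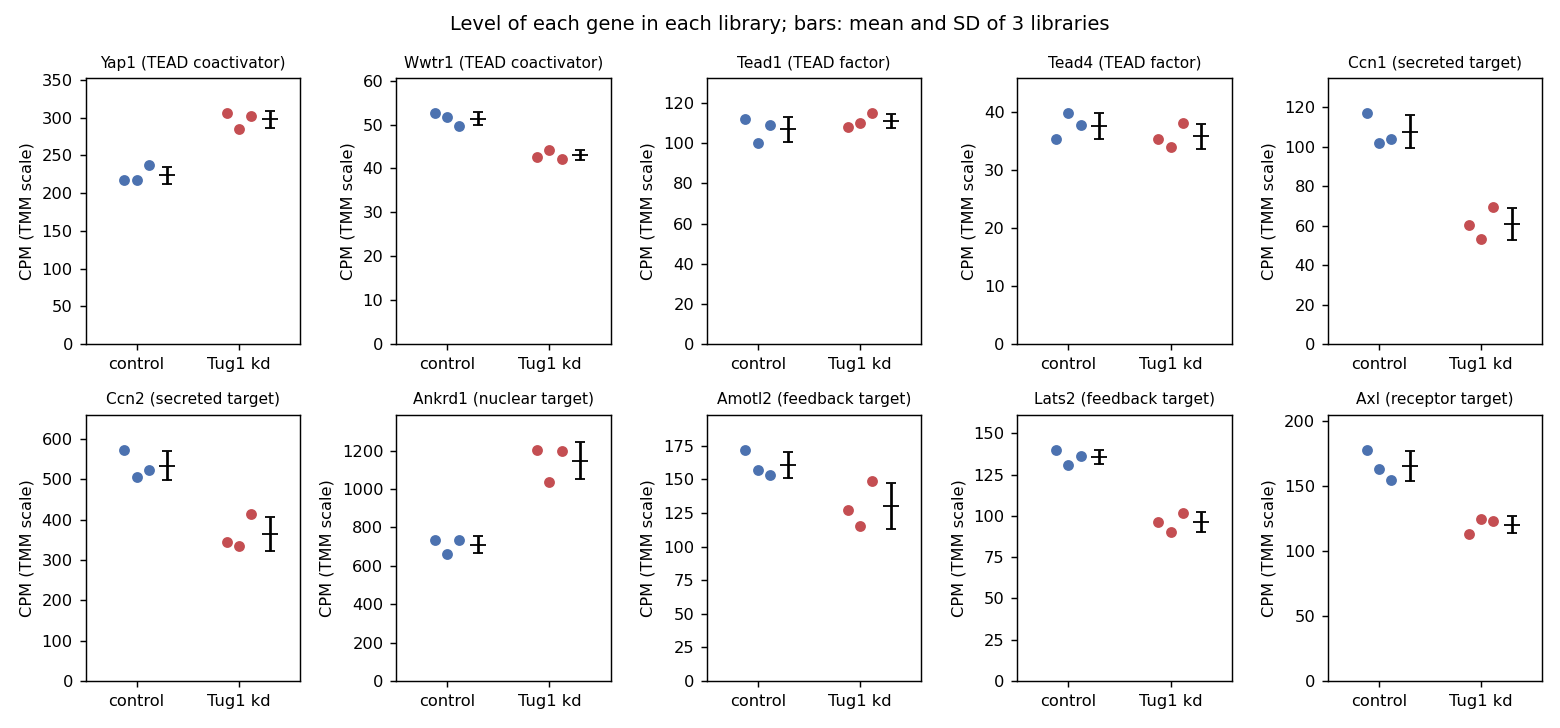
Level of each of the 10 genes in each library, in CPM on the TMM scale, on axes that start at 0. Each point is a library (3 controls in blue, 3 Tug1 knockdowns in red), and the bar beside them is the mean with its SD. Points of the groups overlap for Tead1 and Tead4 and for no other gene.

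The coactivator genes moved in opposite directions. Fold changes here are of Tug1 gapmer over control gapmer. Yap1 was at 217, 218 and 237 CPM in control replicates 1 to 3 and at 306, 285 and 302 CPM in knockdown replicates 1 to 3. Every knockdown library lay above every control library. The mean went from 224 ± 11.2 to 298 ± 11.2 CPM (SD over n = 3), or 0.41 on the log2 scale (SE 0.0483, edgeR adjusted p 1.25e-07), or 1.33-fold. Wwtr1, the gene for TAZ, was at 52.6, 51.6 and 49.7 CPM in controls and at 42.7, 44.3 and 42.1 CPM after knockdown. Here the order was the reverse, with all knockdown libraries below all controls. The mean went from 51.3 ± 1.46 to 43.0 ± 1.16 CPM (SD over n = 3), or -0.25 on the log2 scale (SE 0.062, edgeR adjusted p 0.0011).

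A ratio of counts within a library does not depend on how libraries are scaled. The ratio of Wwtr1 to Yap1 counts was 0.242, 0.237 and 0.210 in controls and 0.139, 0.155 and 0.139 after knockdown. The groups did not overlap, and the mean log2 ratio differed by -0.67 between knockdown and control. An exact permutation test (two-sided) gave p = 0.1, the smallest that 3 against 3 libraries allow, or 0.133 adjusted over the 4 ratios computed. These ratios compare counts of transcripts of unlike length, so their absolute size is not a ratio of molecules.

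The TEAD genes Tead1 and Tead4, whose products bind the motif shown above, did not pass the test. Tead1 was at 112, 100 and 109 CPM in controls and at 108, 110 and 115 CPM after knockdown. The values of the groups lay among each other, with a log2 change of 0.05 (SE 0.0544, edgeR adjusted p 0.459). Tead4 was at 35.3, 39.8 and 37.8 CPM in controls and at 35.4, 33.9 and 38.1 CPM after knockdown. These also overlapped, with a log2 change of -0.07 (SE 0.0725, edgeR adjusted p 0.403). The ratio of Tead4 to Tead1 counts was 0.352 ± 0.041 in controls and 0.323 ± 0.0125 after knockdown (SD, n = 3), and the groups overlapped (exact permutation p = 0.3, adjusted 0.3).

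The values of both TEAD genes depended on the treatment of gene length. Across all tested genes with a known genomic span, the median log2 fold change went from -0.21 in the tenth of genes with the shortest span to 0.33 in the tenth with the longest. By span Tead1 stood at percentile 96.0 of tested genes, Wwtr1 at 89.7, Tead4 at 82.9 and Yap1 at 81.3. With an offset that removes this trend from each library, Tead1 was at -0.28 (edgeR adjusted p 4.34e-05) and Tead4 at -0.23 (edgeR adjusted p 0.00865), both called lower, where 62.1% of all genes in that fit were called. With the same offset Yap1 was at 0.27 and Wwtr1 at -0.47, with their calls and directions kept. What the trend with span comes from was not tested.

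**Figure D3:**
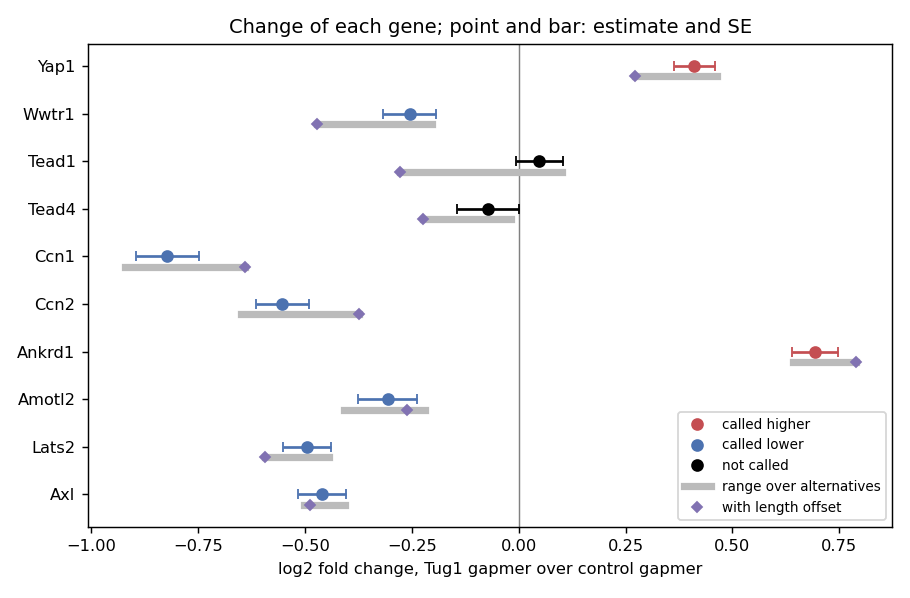
Log2 fold change of each gene, Tug1 gapmer over control gapmer. Points with bars are the estimate and its SE, coloured by call. The grey bar is the range over 16 alternative settings, and the diamond is the value with the length offset. The grey bar crosses 0 for Tead1 and for no other gene.

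The secreted targets Ccn1 and Ccn2 fell. They encode CYR61 and CTGF, matrix proteins that bind integrins and growth factors, and they are the most widely used readouts of YAP and TAZ activity. Ccn1 was at 117, 102 and 104 CPM in controls and at 60.1, 53.3 and 69.3 CPM after knockdown. Its highest knockdown library was far below its lowest control library. Its mean went from 108 ± 8.21 to 60.9 ± 8.06 CPM (SD over n = 3), or -0.82 on the log2 scale (SE 0.0742, edgeR adjusted p 1.95e-09). This left 56.6% of the control level, the lowest share among the 10 genes.

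Ccn2, with 3 copies of the TEAD motif in the window shown above, was at 573, 505 and 524 CPM in controls. After knockdown it was at 344, 335 and 413 CPM. Knockdown replicate 3 stood above the other 2 but below every control. The mean went from 534 ± 34.9 to 364 ± 42.7 CPM (SD over n = 3), or -0.55 on the log2 scale (SE 0.0619, edgeR adjusted p 5.94e-08), which left 68.1% of the control level. Both genes are short, at span percentiles 6.48 and 7.03. With the length offset Ccn1 was at -0.64 and Ccn2 at -0.37, still called lower. The ratio of Ccn2 to Ccn1 counts within a library was 4.90, 4.96 and 5.04 in controls and 5.73, 6.28 and 5.96 after knockdown. The groups did not overlap (exact permutation p = 0.1, the smallest possible, adjusted 0.133).

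**Figure D4:**
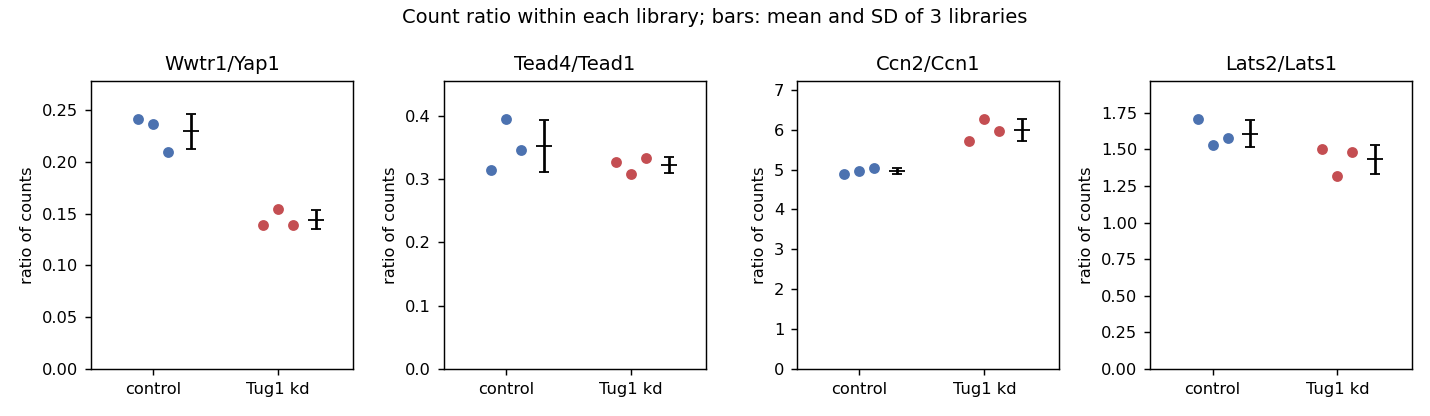
Ratio of counts of related genes within each library, on axes that start at 0. Each point is a library (controls blue, knockdowns red), and bars are the mean with its SD over 3 libraries. Wwtr1/Yap1 and Lats2/Lats1 lie lower and Ccn2/Ccn1 higher after knockdown without overlap, and Tead4/Tead1 overlaps.

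The nuclear target Ankrd1 went the other way. It encodes the cardiac ankyrin repeat protein, a stretch-responsive cofactor that also sits at the sarcomere. Ankrd1 was at 735, 660 and 734 CPM in controls and at 1204, 1036 and 1200 CPM after knockdown. Its mean went from 709 ± 43 to 1147 ± 96.3 CPM (SD over n = 3), or 0.69 on the log2 scale (SE 0.0542, edgeR adjusted p 1.81e-10), or 1.62-fold. It was the only one of the 6 target genes that rose. Of 10 skeletal muscle markers, 9 were called higher and 1, Myod1, lower, beside 30.8% and 30.9% of all tested genes. Rises were not limited to this list. Of 4 tested cardiomyocyte markers, 3 were called higher and 0 lower. Of 5 smooth muscle markers, 3 were called higher and 1 lower, and of 6 tested fibroblast markers, 2 higher and 2 lower. The part of any of these markers in the rise of Ankrd1 was not tested. The muscle relatives of Ankrd1, which encode ankyrin repeat proteins of skeletal muscle, rose as well from low levels. Ankrd2 went from 0.847 ± 0.349 to 3.66 ± 0.894 CPM and Ankrd23 from 0.925 ± 0.0745 to 2.66 ± 0.315 CPM (SD, n = 3), with log2 fold changes of 2.10 and 1.52.

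The feedback targets Amotl2 and Lats2, which YAP induces and which restrain YAP in turn, both fell. AMOTL2 is an angiomotin-family scaffold that binds YAP at cell junctions and on actin, and LATS2 is a kinase that phosphorylates it. Amotl2 was at 172, 157 and 153 CPM in controls and at 127, 115 and 149 CPM after knockdown. The gap between its lowest control and knockdown replicate 3 was small beside the spread within the groups. Its mean went from 161 ± 10.2 to 130 ± 17.2 CPM (SD over n = 3), or -0.31 on the log2 scale (SE 0.0692, edgeR adjusted p 0.000536). Lats2 was at 140, 131 and 136 CPM in controls and at 96.3, 90.0 and 102 CPM after knockdown, with a clear gap between the groups. Its mean went from 136 ± 4.70 to 96.2 ± 6.19 CPM (SD over n = 3), or -0.50 on the log2 scale (SE 0.0554, edgeR adjusted p 5.87e-08).

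The relatives of these feedback genes did not all follow them. Lats1, the paralogue of Lats2, fell by 0.33 on the log2 scale (SE 0.0553), beside -0.50 for Lats2. The ratio of Lats2 to Lats1 counts was 1.71, 1.53 and 1.58 in controls and 1.5, 1.32 and 1.48 after knockdown, without overlap (exact permutation p = 0.1, the smallest possible, adjusted 0.133). Amot, another angiomotin gene, fell by 0.27 (SE 0.0552), while Amotl1 rose from 309 ± 12.1 to 420 ± 4.52 CPM (SD over n = 3), or 0.44 on the log2 scale (0.22 with the length offset).

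The receptor target Axl, a tyrosine kinase of the TAM family, was at 178, 163 and 155 CPM in controls and at 113, 125 and 123 CPM after knockdown. No knockdown library reached the lowest control. The mean went from 166 ± 11.7 to 120 ± 6.62 CPM (SD over n = 3), or -0.46 on the log2 scale (SE 0.0567, edgeR adjusted p 2.56e-07). Its relative Tyro3 fell from 36.6 ± 1.81 to 15.1 ± 2.10 CPM (SD over n = 3), or -1.27 on the log2 scale. The genes for ligands of the TAM family, not all of which bind every receptor of the family, moved apart. Gas6 rose from 506 ± 23.4 to 698 ± 46.8 CPM and Pros1 fell from 165 ± 8.16 to 109 ± 4.06 CPM (SD, n = 3). Among the relatives of Ccn1 and Ccn2, Ccn4 fell from 310 ± 11.4 to 109 ± 7.84 CPM (SD over n = 3), or -1.51 on the log2 scale, and Ccn5 rose by 0.52.

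The rest of the Hippo pathway was described from a list of 38 genes. Of these, 32 were tested and 26 called changed, 15 higher and 11 lower, with a median log2 fold change of 0.12 (0.18 without Fat2) beside 0.00 for all tested genes. Of all tested genes, 61.7% were called, 30.8% higher and 30.9% lower, which is also the background of the smaller groups and lists that follow. With the length offset 9 were called higher and 13 lower, against 30.3% and 31.8% of all genes in that fit. Of the 8 upstream kinases that can activate LATS, 6 rose and 0 fell (4 and 1 with the offset). The largest rises among them were those of Taok2, from 96.0 ± 3.86 to 174 ± 1.42 CPM (SD, n = 3, log2 fold change 0.85), and Map4k2 (0.65). In the kinase core, Stk3, Stk4 and Sav1 rose by 0.37, 0.27 and 0.21. Stk3 and Stk4 encode MST2 and MST1, Sav1 their scaffold, and these 3 were named after their values had been seen. With the length offset Stk3 (0.01, edgeR adjusted p 0.894) and Stk4 (0.11, edgeR adjusted p 0.147) lost their calls. Lats1 and Mob1b fell, Mob1b (which encodes a LATS coactivator) from 56.1 ± 1.68 to 33.1 ± 1.76 CPM (SD over n = 3), or -0.76 on the log2 scale.

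Of 7 tested upstream scaffold genes, 4 fell and 1 rose. Ajuba, a LIM protein that binds and restrains LATS, had the largest fall of them, from 133 ± 5.04 to 64.7 ± 3.55 CPM (SD over n = 3), or -1.04 on the log2 scale. Frmd6 (-0.54), Rassf1 (-0.44) and Limd1 (-0.40) also fell and Wwc2 rose (0.47, or 0.19 with the length offset), all 4 named after their values had been seen. Fjx1, which modifies the Fat and Dachsous cadherins in its fly form and is itself used as a YAP target, fell from 82.5 ± 3.19 to 28.9 ± 0.972 CPM (SD over n = 3), or -1.52 on the log2 scale. The cadherin gene Fat2 had 23, 30 and 42 counts in controls and 3, 1 and 1 after knockdown. The knockdown sum was 5.24% of the control sum after scaling to library totals, with an exact 95% counting interval of 1.66% to 12.7%. Among the TEAD genes outside the 10, Tead2 rose by 0.19 (SE 0.0694, edgeR adjusted p 0.0227), a call lost in 6 alternatives, and Tead3, at 0.06, did not pass.

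The other YAP and TEAD targets moved in both directions. Of 14 further genes from published YAP and TAZ signatures, 13 were tested, and 7 rose and 3 fell, with a median log2 fold change of 0.22. Fjx1, which fell, was counted with the Hippo pathway above and is not among the 14. Those that fell were Foxf2, a forkhead factor (56.4 ± 1.33 to 28.7 ± 1.80 CPM, log2 fold change -0.98), Nuak2, a kinase of the AMPK family (51.3 ± 2.17 to 29.3 ± 2.21 CPM, -0.81), and F3, the tissue factor gene (-0.35), which was named after its value had been seen. Among those that rose were Gadd45a, a stress-induced growth arrest gene (243 ± 3.42 to 383 ± 11 CPM, 0.66), and Ccdc80, a matrix protein gene (1086 ± 52.2 to 1441 ± 21.1 CPM, 0.41; SD, n = 3 for all). Nt5e rose by 1.05 and Rbms3 by 0.71, both from low levels of 0.874 ± 0.197 and 3.52 ± 0.263 CPM (SD, n = 3). Rbms3 lost its call with the length offset (0.24, edgeR adjusted p 0.231). With that offset 4 of these targets were called higher and 4 lower.

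Serum response factor and its MRTF cofactors share several targets with YAP, so their genes were set beside them. All 14 were tested, and 2 rose and 5 fell, with a median log2 fold change of 0.04. Vcl, the gene for the focal adhesion protein vinculin, fell from 305 ± 15.5 to 173 ± 7.75 CPM (SD over n = 3), or -0.82 on the log2 scale. Actg2 (-0.42), Myl9 (-0.33, or -0.21 with the length offset) and Mrtfa (-0.30, or -0.59 with the offset) fell too. The fifth was Srf, the gene for serum response factor itself, named after its value had been seen, from 73.9 ± 1.5 to 64.1 ± 2.27 CPM (SD over n = 3), or -0.21 on the log2 scale (edgeR adjusted p 0.00269). With the length offset Srf was at -0.12 (edgeR adjusted p 0.0647) and lost its call. Actn1 rose by 0.57 and Acta2 by 0.33. With library totals in place of TMM, or with the length offset, 4 of these genes were called higher.

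**Figure D5:**
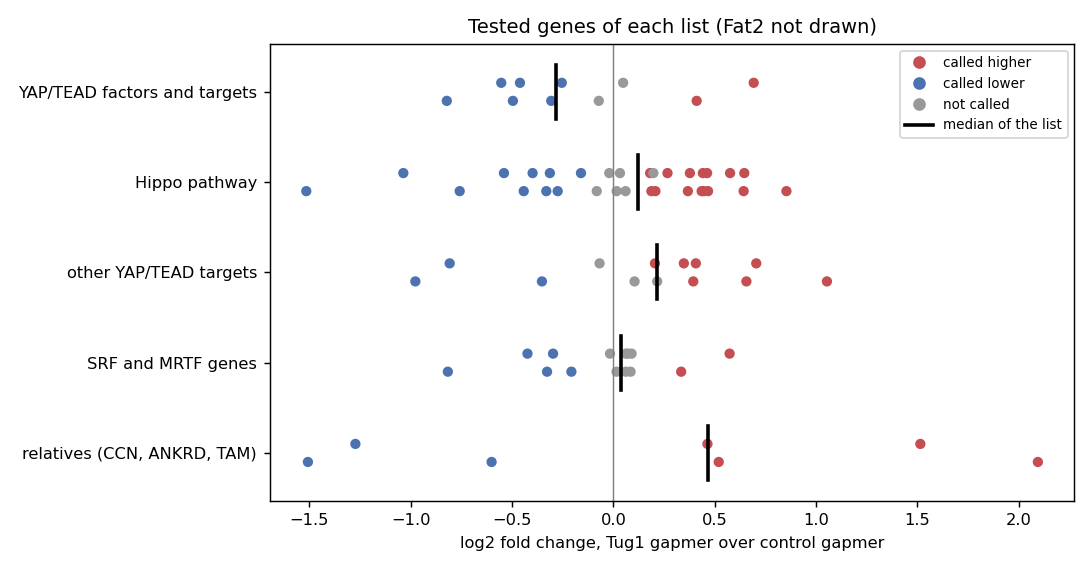
Log2 fold change (horizontal axis, Tug1 gapmer over control gapmer) of every tested gene of each list, coloured by call, with the list's median as a black line. Fat2 is not drawn because its knockdown libraries held 3 counts or fewer. The median lies at -0.28 for the YAP/TEAD factors and targets, at 0.12 for the Hippo pathway (Fat2 included, 0.18 for the genes drawn) and at 0.22 for the other targets.

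The motif shown above was also counted over the tested genes. Of 10529 tested genes with a promoter window, 1198 held at least 1 copy. Of those, 31.5% were called higher and 31.6% lower, beside 32.3% and 31.4% of genes without a copy. Ccn2 was among 9 tested genes with at least 3 copies, of which 2 were called higher and 5 lower. The genes with the pattern most like that of Ccn2 across the 6 libraries, among 9080 others averaging 10 CPM or more, were Ptpn12 (Pearson r 0.9987), Dclre1c (0.9967) and Cflar (0.9963). Their log2 fold changes were -0.24, -0.40 and -0.22, and with the length offset those of Ptpn12 and Cflar were -0.38 and -0.36. With 6 libraries in 2 groups, such values mostly follow the difference between the groups.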

How the data were processed

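Poly-A RNA sequencing libraries of 3 control and 3 Tug1 gapmer samples were analysed from a table of gene counts. What the authors deposited are raw counts per gene symbol, 1 column a library, as the whole-number values show. Per the labels' protocols, strand-specific preparation started from 500 ng of RNA with an integrity number of at least 9. FastQC 0.11.7, fastp 0.14.1 and STAR 2.5 appear in the submitters' processing notes. The counting tool, genome build, annotation, strand setting and handling of shared reads are not given in the sources used here. Reads have no molecular identifiers, so counting intervals cover counting error only.

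The main test was that of edgeR 4.0.16 in R 4.3.3. Genes passing filterByExpr (minimum count 10, minimum total 15) numbered 14216. Libraries were scaled by TMM (factors 0.979 to 1.02), and the quasi-likelihood test (two-sided, no block) was adjusted by Benjamini-Hochberg over all of them. CPM are on the TMM scale, and levels were not compared between genes since transcript lengths were not used. Alternatives used DESeq2 1.42.0, limma 3.58.1 (voom), other scalings, filters and thresholds, a replicate block, a length offset and each library left out. The offset removed a lowess trend (span 0.3) on genomic span, which 13079 tested genes had in a RefSeq table of GRCr8. Ratios were tested by exact permutation (scipy 1.17.1). The scripts were tested on simulated counts.

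The members and lists were chosen with earlier results of these data known. Named besides the 10 members were, per list, the called genes with the 6 largest absolute changes, relatives of Lats2, Tead1 and Amotl2, tested relatives of the CCN, ANKRD and TAM genes, and the 3 genes most like Ccn2.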

Additional observations from a re-analysis of the deposited data

How the results depend on the processing

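Over 16 alternative settings, the 8 changed genes among the 10 kept their direction and their call. Ccn1 ranged from -0.92 to -0.64, Ccn2 from -0.65 to -0.37, Ankrd1 from 0.64 to 0.79, Yap1 from 0.27 to 0.46, Wwtr1 from -0.47 to -0.20, Amotl2 from -0.41 to -0.22, Lats2 from -0.59 to -0.44 and Axl from -0.50 to -0.41. The length offset turned Tead1 from 0.05 to -0.28 (-0.2793, and -0.2788 with the replicate block) and brought Tead4 past the threshold at -0.2251 (-0.2245 with the block), so that 10 of 10 genes were called, against 62.1% of all genes in that fit (62.3% with the block). With the offset, with or without the block, 9 Hippo pathway genes, 4 other targets and 4 SRF and MRTF genes were called higher in place of 15, 7 and 2. In the same lists 13, 4 and 4 genes were called lower in place of 11, 3 and 5. Library totals also gave 4 SRF and MRTF genes called higher, and moved the median of all tested genes from 0.00 to 0.06. Apart from the offset's own construction, the cause was not tested.

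When a library was left out, 8 of the 10 genes were called in each of the 6 fits (56.0% to 58.1% of all genes), with Tead1 from 0.00 to 0.08 and Tead4 from -0.12 to -0.03. The 4 count ratios kept their sign when a library was left out. Of 43 other named genes, 38 kept direction and call throughout. Tead2 lost its call in 6 alternatives, and Rbms3, Stk3, Stk4 and Srf lost theirs in both fits with the length offset, all keeping their direction.

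Across genes, the deviations of libraries that share a replicate number correlated weakly. Pearson's r was -0.0706 (number 1), 0.144 (number 2) and 0.0795 (number 3). The libraries of number 2 correlated best with each other, but controls 1 and 3 each correlated best with another number. A block for replicate number lowered the SE of each of the 10 genes, most for Ankrd1 (0.0542 to 0.0347). Whether the libraries are paired was therefore not settled. With the number as a replicate block, 8 of the 10 genes were called, against 62.2% of all tested genes.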

Other observations

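Within the knockdown group, the targets that fell did not sit at 1 level. Knockdown replicate 3 lay above the mean log2 level of its group by 0.20 for Ccn1, 0.19 for Ccn2, 0.20 for Amotl2 and 0.09 for Lats2. Knockdown replicate 2 lay at -0.19, -0.12, -0.18 and -0.09 for the same genes. Ankrd1, which rose, was also lowest in knockdown replicate 2, at -0.14. Axl did not follow this order, with replicate 1 lowest at -0.09. In the controls, replicate 1 was the highest for all 6 target genes. It lay above the group mean by 0.10 to 0.12 for Ccn1, Ccn2, Amotl2 and Axl. For Ankrd1 (0.052, beside 0.05 in replicate 3) and Lats2 (0.049) it lay above by less. Control replicate 2 was the lowest for Ccn1 (-0.075), Ccn2 (-0.078), Ankrd1 (-0.103) and Lats2 (-0.051), and control replicate 3 for Amotl2 (-0.069) and Axl (-0.09). No test was run on these deviations within a group.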
